A study of Mus musculus with 42 samples.

Results

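Otx2, Pou3f1, Sox3, Foxd3, Sall2 and Grhl2 encode transcription factors associated with the formative state, in which epiblast cells have left naive pluripotency and become able to respond to lineage signals. They were taken by exact gene name, 6 genes of 16345 in the table of epiblast-like cells (EpiLCs) and of 16753 in the table of embryoid bodies (EBs). All 6 had a mean of at least 1 and were tested in every comparison. The libraries are polyA-selected RNA of mouse embryonic stem cells (ESCs), 24 in the EpiLC table and 8 in the EB table.

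The line KH2-ISY1 makes Flag-ISY1, a tagged spliceosome protein, when doxycycline (Dox) is added. Without Dox it was sampled in 2i/LIF medium, which holds cells in the naive state, at 0 h. It was then sampled 6, 12, 18, 24, 30, 36, 48, 72 and 96 h after transfer to EpiLC medium, and with Dox at 24, 48, 72 and 96 h. An ESC line with a knockout of DGCR8, a protein needed to cut primary microRNA transcripts, was sampled at 0, 6, 24, 48, 72 and 96 h. Its sample titles do not mention Dox. The 4 cESC libraries are EpiLCs put back into 2i/LIF, at 24 h or 48 h, and grown before that in the presence or absence of Dox. In the second table are KH2-ISY1 cells without Dox in serum/LIF (day 0), their EBs on days 1, 2, 4, 8, 10 and 13, and a serum/LIF library with Dox. Every KH2-ISY1 group carries the inducible transgene, no library with Dox lacks it, and the knockout is a different line. Dox itself and ISY1, and line and knockout, therefore cannot be told apart. Each condition and time had 1 library, so no single value has a replicate error, and the p-values measure spread between libraries of different times. Whether the libraries come from separate cultures is not given in the sources used here.

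Depth ranged from 5.8 to 56.02 M reads per library. Isy1 stood at 3038.3, 912.3, 1108.6 and 707.7 normalised reads with Dox at 24, 48, 72 and 96 h. It stood between 396.5 and 557.5 without Dox at the same hours. Dgcr8 stood between 36.8 and 44.5 in the knockout and between 75.2 and 231.0 in the other line at the same hours. The knockout libraries thus still held Dgcr8 reads, and the sources used here do not say which part of the gene was removed. The 30 h and 36 h libraries were out of order on the EpiLC course, since the summed level of 14 naive genes was 14344 at 24 h, 9966 at 30 h, 13596 at 36 h and 5501 at 48 h. Depth moved with hour on that course, with 6.17 to 6.35 M reads at 0, 24 and 48 h, 9.15 to 9.71 M from 6 to 36 h otherwise, and 11.42 and 13.15 M at 72 and 96 h. The part of depth in the results was not tested.

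In the mouse embryo the formative epiblast lies between the naive cells of the blastocyst and the primed cells that enter gastrulation, and EpiLCs are its usual culture model. OTX2, a paired-type homeodomain protein, and POU3F1 (OCT6), a POU-domain protein, are known to act with OCT4 at enhancers engaged when cells leave the naive state. GRHL2, a grainyhead-like protein, keeps epithelial genes active at enhancers in EpiLCs, FOXD3 is a forkhead protein that acts at enhancers around the same transition, SOX3 is a SoxB1 protein of epiblast and neural cells, and SALL2 is a zinc finger protein of the spalt family.

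In the GRCm38.p6 annotation of RefSeq, Otx2 lies at chr14:48656781-48667644 and Sall2 at chr14:52311177-52328670. Foxd3 lies at chr4:99656299-99658671 and Pou3f1 at chr4:124657646-124660655. Sox3 lies at chrX:60891366-60893430 and Grhl2 at chr15:37232821-37363569. The first bases of Grhl2 overlap the non-coding RNA gene Gm16136 (chr15:37231921-37233159), which has no row in either table. How the counting treated the strand is not given in the sources used here. RefSeq start windows of GRCm38.p6 were matched for 3 of the 6 genes, 4 for Otx2, 1 for Foxd3 and 2 for Sall2. On the EpiLC course without Dox Foxd3 was highest early, Sall2 ended at its high and Otx2 varied without passing the test. No link between these courses and the sequences was tested. A window per gene is shown for these 3, the only ones of the 6 that have any. Each shows the 250 bases before an annotated start in lower case, 5′ to 3′ on the gene's own strand, with motif matches in capitals, and the files cannot tell which start was used.
Otx2, start 3 of 4, chr14:48665110-48665359, minus strand: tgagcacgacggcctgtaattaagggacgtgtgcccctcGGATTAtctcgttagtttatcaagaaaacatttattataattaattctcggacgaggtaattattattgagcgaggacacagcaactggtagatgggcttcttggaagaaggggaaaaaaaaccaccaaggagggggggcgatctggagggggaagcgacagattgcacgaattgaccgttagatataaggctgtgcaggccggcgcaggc
Foxd3, chr4:99656049-99656298, plus strand: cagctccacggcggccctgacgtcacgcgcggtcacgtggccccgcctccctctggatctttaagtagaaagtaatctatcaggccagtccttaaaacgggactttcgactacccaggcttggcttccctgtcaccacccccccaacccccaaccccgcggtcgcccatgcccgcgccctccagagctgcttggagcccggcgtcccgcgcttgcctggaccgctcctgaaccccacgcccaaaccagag
Sall2, start 2 of 2, chr14:52316324-52316573, minus strand: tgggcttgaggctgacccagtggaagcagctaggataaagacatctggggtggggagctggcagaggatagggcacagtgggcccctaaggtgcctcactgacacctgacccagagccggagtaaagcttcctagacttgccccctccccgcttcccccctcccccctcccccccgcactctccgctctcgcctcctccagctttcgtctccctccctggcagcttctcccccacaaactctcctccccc
The Otx2 and Sall2 windows lie inside the genes' annotated extents. Both strands were searched for TAATCC (the OTX homeodomain motif), ATGCAAAT (the POU octamer), ACAAAG (SOX), TGTTTAC (FOX), AACCNGTT (GRHL), TATAAA (the TATA box) and the box named CCAAT for its letters. The match in the Otx2 window is GGATTA, the reverse complement of TAATCC, which begins 211 bases before the start. It does not overlap another motif, and a match to TAATCC is held by 6.25% of all 32851 RefSeq windows of this length. Of the 4 Otx2 windows only the one shown holds this match, and the share is per window, not per gene. No letters of these motifs were found in the Foxd3 window or in this Sall2 window. GC content of the windows shown was 48.4% for Otx2, 65.6% for Foxd3 and 64.4% for Sall2, against a median of 52.4% over all windows. The other Sall2 window had 28%, and the others of Otx2 had 42%, 49.2% and 53.6%. Among the other windows, the first of Otx2 and the first of Sall2 hold a TATA box match, and the second of Otx2 and the first of Sall2 hold a CCAAT match. On either strand 12.4% of all windows hold the TATA box letters and 33.8% the CCAAT letters. A match of letters is not a binding site.

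**Figure D1:**
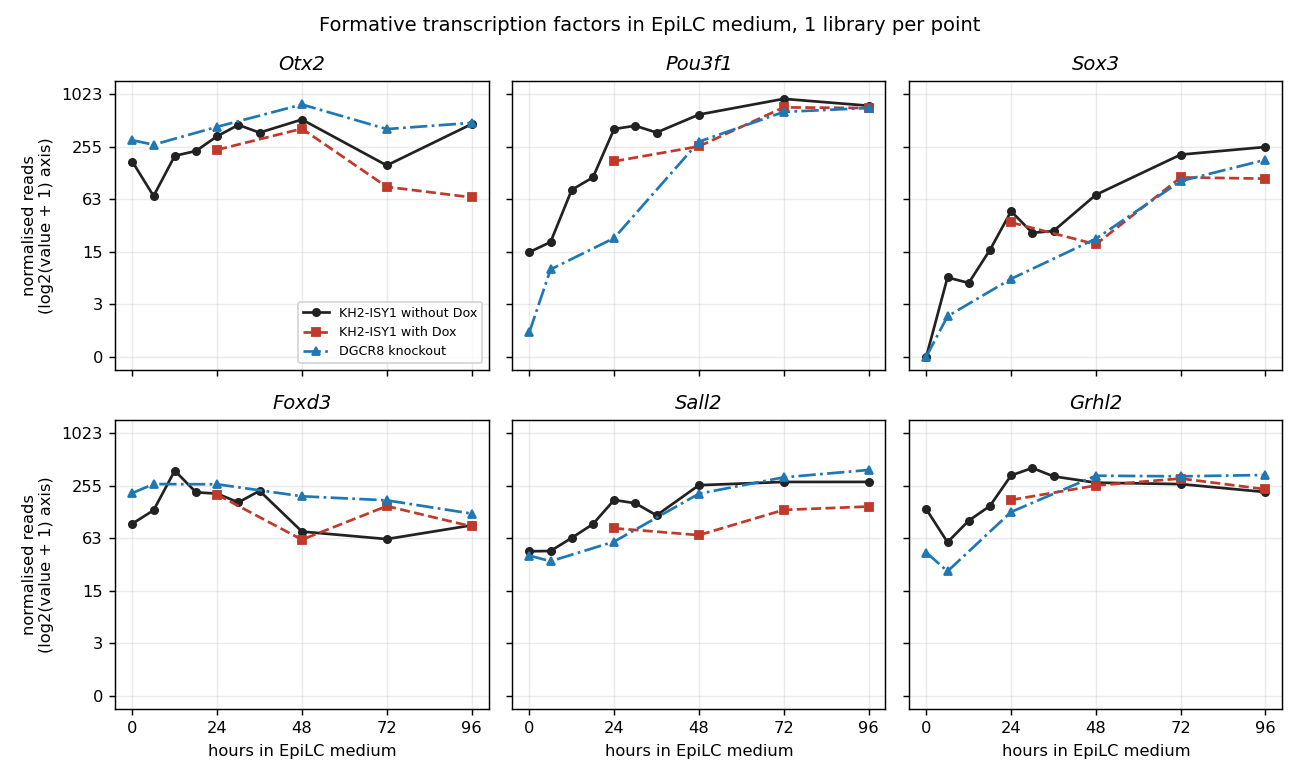
Normalised reads of each gene (vertical axis, spaced as log2(value + 1)) against hours in EpiLC medium, with 1 library per point and no error bars, for KH2-ISY1 without Dox, with Dox and the DGCR8 knockout. Sox3 climbed from 0 in both lines, and Pou3f1 from 14.8 in KH2-ISY1 without Dox and 0.9 in the knockout. Foxd3 was highest at 12 h without Dox, and Otx2 with Dox was at its lowest, 66.1, at 96 h.

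Along the EpiLC course without Dox the values of the 6 genes did not move alike. Pou3f1, Sox3 and Sall2 rose and ended at or near their high, and Foxd3 and Grhl2 were highest at 12 h and 30 h. Otx2 did not pass the test, and whether the genes differ in course was not tested. The course was fitted as a smooth curve of the square root of hour over 10 libraries with limma, a linear model across all genes, and changes are differences in log2(value + 1) between the fitted 96 h and 0 h values. A gene was called at a Benjamini-Hochberg adjusted p under 0.05 over all genes, two-sided. By that test 5 of the 6 genes changed, against a background of 50.1% of the 16206 genes tested (25.4% higher and 24.8% lower), so a call alone sets no gene apart here. In bulk RNA, fewer cells that express a gene and less RNA per cell cannot be told apart.

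Pou3f1 stood at 14.8, 19.6, 80.8, 112.8, 407.3, 443.5, 370.4, 596.5, 903.5 and 753.6 normalised reads in order of hour. The 4 earliest libraries were all below the 6 later ones. The high at 72 h was 61-fold the level at 0 h, and the level at 96 h was 50.9-fold. Between the fitted ends Pou3f1 rose by 5.76 ± 0.63 (SE, 10 libraries) on the log2 scale (limma adjusted p = 3.41e-05). Most of this lay in the first day, with a fitted change of 4.03 ± 0.53 from 0 to 24 h (adjusted p = 0.000592) and of 1.73 ± 0.49 from 24 to 96 h (adjusted p = 0.0201). Without the 0 h library, where the start is extrapolated, the whole change was 10.90 (adjusted p = 1.21e-05) and that to 24 h was 9.36 (adjusted p = 0.0082). The later call ended without the 96 h library (adjusted p = 0.45) and without the 30 h and 36 h libraries (adjusted p = 0.0662). From 0 to 24 h 21% of all genes were called, and from 24 to 96 h 30.9%.

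Sox3, from a gene without introns on the X chromosome that encodes a relative of SOX2, went from no read at 0 h to its highest level at 96 h. Its values were 0.0, 7.1, 6.0, 15.7, 45.5, 25.3, 26.6, 70.8, 206.5 and 252.8 normalised reads in order of hour. The 30 h and 36 h libraries lay below the 24 h one, and the 72 h and 96 h libraries above all others. Against the floor of 3 reads in the 0 h library, which is 2.61 normalised reads, the 96 h level was at least 96.9-fold higher. The fitted change was 8.18 ± 0.70 on the log2 scale (adjusted p = 3.01e-05). It comprised 4.55 ± 0.58 up to 24 h (adjusted p = 0.000546) and 3.63 ± 0.54 after it (adjusted p = 0.00069). The early call ended without the 0 h library, where the start is extrapolated (3.14, adjusted p = 0.546).

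Sall2 rose more slowly. It stood at 44.3, 44.6, 63.5, 91.9, 174.5, 160.0, 116.0, 258.4, 281.5 and 281.7 normalised reads in order of hour, a 6.36-fold range from first to last. The 0 h and 6 h libraries were level with each other, as were the last 2. The fitted change was 2.75 ± 0.43 (adjusted p = 0.000305), with 1.46 ± 0.36 up to 24 h (adjusted p = 0.0162) and 1.29 ± 0.33 after it (adjusted p = 0.0141). Without the 0 h library the whole change was 4.71 with the start extrapolated (adjusted p = 0.000389). The early call ended without it (3.50, adjusted p = 0.205) and the late call without the 96 h library (1.32, adjusted p = 0.307).

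Foxd3 passed the test of the whole curve (adjusted p = 0.0155) with ends that were nearly level, at −0.19 ± 0.59 on the log2 scale. It stood at 93.0, 132.7, 379.6, 214.0, 206.4, 163.5, 222.5, 75.2, 61.5 and 88.9 normalised reads in order of hour. The 12 h library was the highest, 4.08-fold the 0 h level, and by 96 h the level was 23.4% of that high. The fall after 24 h was called (−1.47 ± 0.45, adjusted p = 0.0304), and the earlier rise was not (1.28 ± 0.49, adjusted p = 0.0862). The call for the whole curve ended without the 12 h library (adjusted p = 0.0516), and the fitted ends changed order without the 0 h library (3.17, extrapolated) and were level without the 72 h library. They stood at −1.40 without the 96 h library (extrapolated) and at −0.89 with a stiffer curve of 2 degrees of freedom. The call for the fall ended without the 24, 30, 72 or 96 h library (adjusted p = 0.053, 0.0534, 0.08 and 0.0959, with an extrapolated change of −2.70 in the last case) and without the 30 h and 36 h libraries together (adjusted p = 0.112).

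Grhl2 went down, up and part of the way back, at 136.5, 56.5, 100.6, 148.8, 334.5, 407.6, 326.6, 276.1, 266.0 and 215.3 normalised reads in order of hour. The 6 h library was the lowest and the 30 h one the highest, 2.99-fold the 0 h level, and the 96 h level was 52.8% of that high. The whole curve passed (adjusted p = 0.00796) with a change between the fitted ends of 0.65 ± 0.58. Neither the change to 24 h (0.82 ± 0.48, adjusted p = 0.248) nor that after it (−0.18 ± 0.45, adjusted p = 0.798) passed. A stiffer curve with 2 degrees of freedom did not pass (adjusted p = 0.123), and the fitted ends changed order without the 96 h library (−0.39) and stood at 5.54 without the 0 h library (extrapolated).

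Otx2 did not pass on this course (1.00 ± 0.81, adjusted p = 0.101). Its values were 171.3, 68.5, 200, 227.3, 336.4, 453.5, 369.8, 523.0, 155.0 and 463.4 normalised reads in order of hour. From 12 h to 48 h each library but the 36 h one lay above the one before it, while the 72 h library was lower than every library except that of 6 h. Without that 1 library the change was 1.61 and passed (adjusted p = 0.008). Without the 96 h library the fitted end is an extrapolation from the low 72 h value, and the sign turned (−2.03, adjusted p = 0.00661). Without the 0 h library, where the start is extrapolated, the change was 6.94 (adjusted p = 0.0133).

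Values can also be read among libraries of like depth. Among the 0, 24 and 48 h libraries, of 6.17 to 6.35 M reads, Pou3f1 stood at 14.8, 407.3 and 596.5 and Otx2 at 171.3, 336.4 and 523.0. Foxd3 was highest at 24 h among these, at 93.0, 206.4 and 75.2, while the 12 h library of its high on the whole course is not in this set. Among the 6, 12, 18, 30 and 36 h libraries, of 9.15 to 9.71 M reads, the lowest and highest values were 19.6 and 443.5 for Pou3f1, at 6 h and 30 h, and 44.6 and 160.0 for Sall2 at the same hours.

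The other genes of the same families mostly did not share these courses. Of 13 tested relatives 1 ended higher and 9 ended lower, with a median change of −1.47 against −0.02 over all genes. Sox2, the SoxB1 partner of OCT4, moved opposite to Sox3 and fell from 1957.4 to 152.3 normalised reads (−3.83 ± 0.29, adjusted p = 5.85e-06). Sox1, the neural SoxB1 gene, stood at 53.0 and 67.2 at the ends (adjusted p = 0.132). Grhl3 fell from 306.1 to 21.3 (−3.70 ± 0.56, adjusted p = 0.000196), and Grhl1 rose from 20 to 53.2 (1.68 ± 0.46, adjusted p = 0.0212). Otx1 fell from 10.4 to 0.9 (−2.70 ± 0.80, adjusted p = 0.00322) and Pou3f2, a neural POU gene, went from 5.2 to 0.9 with a high of 41.1 at 6 h (−1.47 ± 0.97, adjusted p = 0.0253). Sall1 and Sall4 passed with fitted ends close to level (−0.09 ± 0.27 and −0.09 ± 0.50).

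Of 15 other formative epiblast genes 14 ended higher and 1 lower, with a median change of 3.24. Fgf5, which encodes a fibroblast growth factor and is the common EpiLC marker, rose by 8.56 ± 0.90 (adjusted p = 1.74e-05), and Lef1, a nuclear partner of beta-catenin, fell by 3.95 ± 0.66 (adjusted p = 0.00259). All 14 naive genes ended lower, with a median of −5.66. Genes linked to GRHL2 in epithelia, such as those of tight junctions and desmosomes, split by time. Up to 24 h, while Grhl2 went from 136.5 to 334.5, 2 of 24 were called higher and 5 lower (median −0.24). From 24 to 96 h, while Grhl2 went from 334.5 to 215.3, 17 of 24 were called higher and 0 lower (median 2.07), among them Marveld3 (4.69 ± 0.63, adjusted p = 0.000406) and Cldn7 (4.21 ± 0.61, adjusted p = 0.000622), both of tight junctions. In these intervals 10.7% and 15.3% of all genes were called higher, and 10.3% and 15.6% lower. Markers of fibroblast feeders moved with the late hours. Their summed level over 3 measured genes was 20.8 to 66.9 up to 48 h and 147 and 154 at 72 and 96 h, with Col1a2 at 0 in 4 of the 10 libraries and Col3a1, Dcn, Lum and Postn without a row. The summed level of 5 measured primitive and visceral endoderm genes was 20.4 to 95.6, highest at 0 h. The part of either in the results was not tested.

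Over all 24 EpiLC table libraries Pou3f1, Sox3, Sall2 and Grhl2 varied together more closely than Otx2 or Foxd3 varied with them. Pearson correlations of log2(value + 1) between the 4 ranged from 0.81 (Sox3 with Grhl2) to 0.94 (Pou3f1 with Sox3). Foxd3 had correlations of 0.16 with Sox3, 0.24 with Grhl2, 0.25 with Pou3f1 and 0.30 with Sall2. Otx2 lay between, at 0.44 with Sox3, 0.53 with Pou3f1, 0.61 with Grhl2, 0.64 with Sall2 and 0.64 with Foxd3. These points share lines, times and library preparation, so the values are descriptions. Of 13957 genes with a mean of at least 10, those most like Pou3f1 were Zcchc3 (0.963), Fkbp10, an isomerase of collagen folding (0.960), and Tmem229a (0.959). Those most like Sox3 were Mapk8ip1, a JNK scaffold (0.956), the zinc finger gene Zic2 (0.944) and Pou3f1. For Sall2 they were the actinin gene Actn3 (0.959), Cdr2 (0.948) and the growth factor gene Fgf15 (0.940). For Grhl2 they were the ectonucleotidase gene Enpp3 (0.941), the transporter gene Slc29a4 (0.921) and Pou3f1 (0.917). For Foxd3 they were the importin gene Ipo4 (0.941), Fzr1, an activator of the anaphase-promoting complex (0.933), and Fiz1 (0.931). For Otx2 they were the RNA-binding protein gene Serbp1 (0.901), the phosphofructokinase gene Pfkm (0.885) and the class I histocompatibility gene H2-D1 (0.877), the lowest values of the 6 genes.

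**Figure D2:**
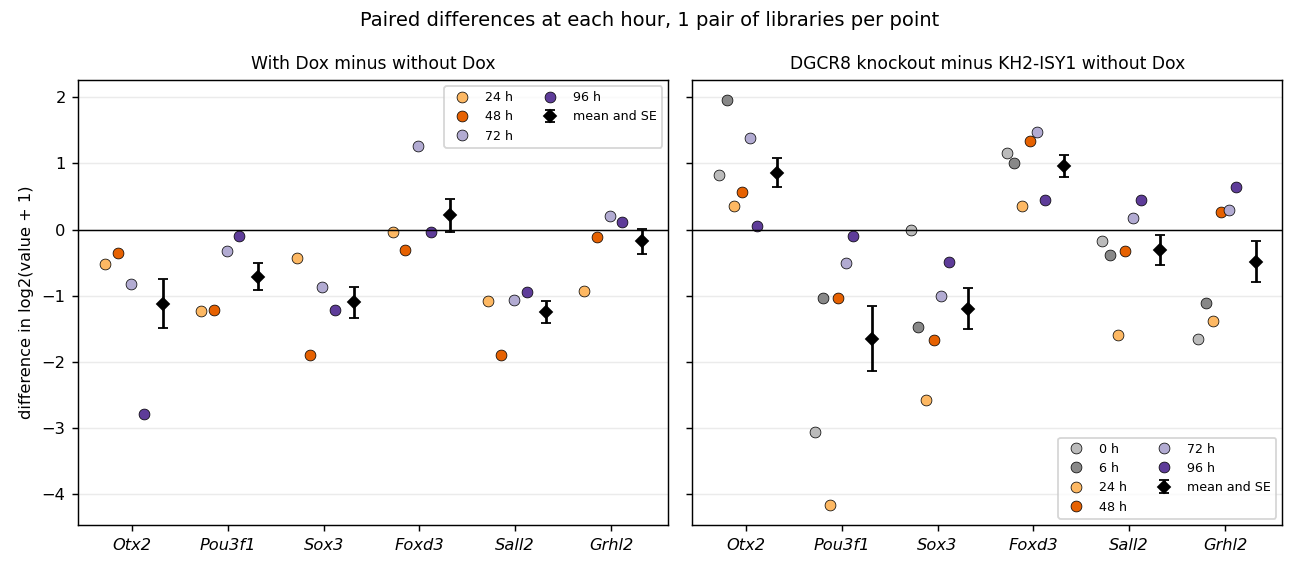
Differences in log2(value + 1) between paired libraries of the same hour (vertical axis) for each gene (horizontal axis), left with Dox minus without and right DGCR8 knockout minus KH2-ISY1 without Dox. Circles are pairs coloured by hour and diamonds are the mean over pairs with its SE from limma; Sall2 was below 0 in 4 of 4 pairs with Dox, and Foxd3 above 0 in 6 of 6 knockout pairs.

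With Dox, Sall2 alone of the 6 genes passed. It was lower at each of the 4 hours, as were Otx2, Pou3f1 and Sox3, which did not pass. How many of all genes were lower at every hour was not counted, so nothing is read from this common sign. The difference was fitted over 4 pairs of libraries at 24, 48, 72 and 96 h with hour as a block. In this fit 2.83% of 16117 genes were called, 1.05% lower, and 1 of the 6 genes. Sall2 stood at 82.2, 68.4, 134.1 and 146.6 normalised reads with Dox and at 174.5, 258.4, 281.5 and 281.7 without. Every value with Dox lay below every value without, and the share of all genes with such a separation was not counted. The mean difference was −1.25 ± 0.17 (SE, 4 pairs; adjusted p = 0.0345). The call ended without the 48 h pair (−1.03, adjusted p = 0.142), without the 72 h pair (−1.31, adjusted p = 0.24) and without the hour block (adjusted p = 0.388). It also ended with no intensity trend (adjusted p = 0.101) or no filter on low values (adjusted p = 0.0533).

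Sox3 was lower with Dox at 33.6, 18.4, 112.7 and 109.0 against 45.5, 70.8, 206.5 and 252.8 normalised reads, a mean difference of −1.10 ± 0.23 that did not pass (adjusted p = 0.0538, 4 of 4 pairs lower). It passed without the 24 h pair (−1.32, adjusted p = 0.0267) and with a pseudocount of 4 (adjusted p = 0.0476). Otx2 stood at 234.6, 410.5, 87.6 and 66.1 with Dox and at 336.4, 523.0, 155.0 and 463.4 without (−1.12 ± 0.37, adjusted p = 0.134, 4 of 4 pairs lower). The gap at 96 h, where the level with Dox was 0.143 of that without, was the widest, and without that pair the mean was −0.56.

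For Pou3f1 the gap closed with time. It stood at 172.9, 257.0, 721.3 and 708.6 normalised reads with Dox and at 407.3, 596.5, 903.5 and 753.6 without. The ratio was 0.425 and 0.431 at 24 and 48 h and 0.798 and 0.940 at 72 and 96 h. The ratio of Isy1 fell over the same pairs, at 7.19, 2.3, 1.99 and 1.69 in order of hour. Depth in these pairs was 6.16 to 6.39 M reads at 24 and 48 h and 11.42 to 15.08 M at 72 and 96 h. The part of either was not tested. The mean difference of Pou3f1 did not pass (−0.71 ± 0.20, adjusted p = 0.0958, 4 of 4 pairs lower), whereas the change of its difference with hour did. From 24 to 96 h the fitted difference moved by 1.27 ± 0.27 on the log2 scale (adjusted p = 0.0436, 2 residual degrees of freedom), where 2.84% of all genes were called (1.72% upward and 1.11% downward) and Pou3f1 was 1 of 6. At the first 2 hours alone, where whole reads were recovered and the gap was widest, edgeR's quasi-likelihood test gave −1.24 for Pou3f1 (adjusted p = 5.09e-05). This test was chosen after the data were seen. With 2 pairs it has fewer residual degrees of freedom than the fit to 4 pairs. By that test Sall2 was at −1.53 (adjusted p = 0.000332), and Otx2 and Sox3 were not called. It used the 24 h and 48 h pairs alone and called 522 of 14128 genes, 180 of them lower.

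Grhl2 and Foxd3 showed no common direction with Dox. Grhl2 stood at 174.8, 256.1, 308.2 and 231.7 with Dox and at 334.5, 276.1, 266.0 and 215.3 without (−0.18 ± 0.19, adjusted p = 0.597), lower at 24 and 48 h and higher at 72 and 96 h, and its change with hour of 1.09 ± 0.29 did not pass (adjusted p = 0.0929). Foxd3 stood at 200.9, 60.5, 148.3 and 86.4 with Dox and at 206.4, 75.2, 61.5 and 88.9 without (0.22 ± 0.25, adjusted p = 0.64). At 24 and 96 h the pairs were within 0.04 on the log2 scale, and the sign rested on the 72 h pair (−0.13 without it). The changes with hour of Otx2 (−2.04 ± 0.59, adjusted p = 0.115), Sox3, Foxd3 and Sall2 did not pass.

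Around these genes, 4 of 15 formative genes were lower with Dox and 0 higher, among them Sfrp2, a Wnt antagonist (−1.29 ± 0.25, adjusted p = 0.0477), and Fgf5 (−1.18 ± 0.21, adjusted p = 0.0422). Of 14 naive genes 7 were higher and 0 lower (median 1.47, against −0.01 over all genes), and 1.78% of all genes were called higher. Of 13 relatives 1, Grhl3, was higher (1.30 ± 0.20, adjusted p = 0.036). Of 24 GRHL2-linked epithelial genes 3 were lower and 0 higher. Endoderm markers moved with Dox: Sox7 and Gata6, regulators of extraembryonic endoderm, were higher (2.08 ± 0.34 and 2.03 ± 0.33, adjusted p = 0.0371 for both), 2 of 5 measured markers. Their summed level was 57.0 to 103 with Dox and 20.4 to 40.9 without at the same hours, with Pdgfra at 0 in the 24 h library with Dox and Sox17, Foxa2, Amn, Ttr and Apoa1 without a row. The part of such cells in the results was not tested.

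In serum/LIF, where Isy1 was 15.5-fold higher with Dox between 2 single libraries, the genes also differed in sign. There is no test for 1 library against another, and the intervals cover counting error only. Foxd3 stood at 100.24 normalised reads with Dox and 33.64 without, a ratio of 2.98 (95% exact interval 2.47 to 3.62). Sox3 stood at 7.14 and 16.36 (ratio 0.436, 0.275 to 0.677) and Sall2 at 22.38 and 37.73 (0.593, 0.456 to 0.769). Pou3f1 was at 82.14 and 107.50 (0.764, 0.663 to 0.88), Grhl2 at 167.62 and 127.50 (1.31, 1.17 to 1.47) and Otx2 at 28.81 and 23.86 (1.21, 0.922 to 1.58). Foxd3 and Sox3 were thus the genes past 2-fold, 2 of 6, beside 9.38% of 16036 genes. Set beside the mean EpiLC differences with Dox, Sall2, Sox3 and Pou3f1 were lower and Foxd3 was higher in both settings, though Foxd3 did not pass in EpiLCs and was higher there in 1 of 4 pairs. Otx2 (−1.12 in EpiLCs and 0.26 here on the log2 scale) and Grhl2 (−0.18 and 0.39) had opposite signs. Whether the settings differ was not tested.

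In the DGCR8 knockout line Otx2 and Foxd3 were higher and Pou3f1 and Sox3 lower than in KH2-ISY1 without Dox. The fit used 6 pairs of libraries of the same hour with hour as a block, and shares the libraries without Dox with the comparison above. In all 42.4% of 16267 genes were called, 18.1% higher and 24.3% lower, beside 4 of the 6 genes. With 6 genes nothing is read from the difference between these shares. With median-ratio scaling the higher share of all calls went from 42.6% to 53.4%, and the 4 members kept their calls.

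Foxd3 was higher at every hour, at 209.7, 266.2, 264.6, 192.5, 172.9 and 121.4 normalised reads in the knockout and 93.0, 132.7, 206.4, 75.2, 61.5 and 88.9 in the other line. The mean difference was 0.96 ± 0.17 (SE, 6 pairs; adjusted p = 0.00201, 6 of 6 pairs higher). It kept its call without any single pair. Its high in the knockout came at 6 h and was 1.27-fold the 0 h level, where 12 h was not sampled. Otx2 stood at 302.2, 268.6, 431.2, 778.5, 406.2 and 478.6 in the knockout and at 171.3, 68.5, 336.4, 523.0, 155.0 and 463.4 in the other line. It was higher in 6 of 6 pairs, by 0.86 ± 0.22 (adjusted p = 0.0142), with the widest gaps at 6 h and 72 h, the 2 hours at which the other line was lowest.

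Pou3f1 and Sox3 were lower in the knockout. Pou3f1 stood at 0.9, 9.0, 21.9, 291.1, 639.5 and 709.8 normalised reads, against 14.8, 19.6, 407.3, 596.5, 903.5 and 753.6 in KH2-ISY1. At 24 h the level was 0.0538 of that in KH2-ISY1, and at 96 h it was 0.942. The mean difference was −1.65 ± 0.49 (adjusted p = 0.024, 6 of 6 pairs lower), a call that ended without the 0 h pair (−1.36, adjusted p = 0.0701). Sox3 stood at 0.0, 1.9, 6.8, 21.5, 102.1 and 180.1 against 0.0, 7.1, 45.5, 70.8, 206.5 and 252.8. Both lines had it at 0 at 0 h, and the knockout was lower at the 5 later hours (−1.20 ± 0.31, adjusted p = 0.0137). Without the hour block the calls of Otx2, Pou3f1 and Sox3 ended (adjusted p = 0.204, 0.511 and 0.621).

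Grhl2 and Sall2 crossed between the lines and did not pass. Grhl2 stood at 42.8, 25.7, 127.0, 332.2, 326.8 and 338.4 in the knockout and at 136.5, 56.5, 334.5, 276.1, 266.0 and 215.3 in KH2-ISY1 (−0.49 ± 0.31, adjusted p = 0.234). It was lower at the first 3 shared hours and higher at the last 3. The change of this difference over the course was 2.42 ± 0.44 and just missed the threshold (adjusted p = 0.0549). It passed without the 24 h pair (2.35, adjusted p = 0.0386) and with hour untransformed (2.35, adjusted p = 0.0329). Sall2 stood at 39.4, 33.8, 57.4, 206.1, 318.1 and 386.5 against 44.3, 44.6, 174.5, 258.4, 281.5 and 281.7 (−0.31 ± 0.23, adjusted p = 0.309). None of the 6 genes passed the test of a changing difference, and 0.523% of all genes did (0.375% upward and 0.148% downward). At an unadjusted p under 0.05 the change of Grhl2 alone among the 6 would be counted.

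Within the knockout's own course of 6 libraries 5 of the 6 genes changed, beside 25.1% of 16106 genes (13.8% higher and 11.3% lower). Sox3 rose by 7.62 ± 0.40 (adjusted p = 0.000553) and its 96 h level was at least 192-fold the floor of 3 reads at 0 h. Pou3f1 rose by 9.18 ± 0.69 (adjusted p = 0.00117), from about 3 reads at 0 h. Grhl2 rose by 3.89 ± 0.69 (adjusted p = 0.0168) and Sall2 by 3.86 ± 0.44 (adjusted p = 0.00317). The 96 h levels of Sall2 and Grhl2 were 9.81-fold and 7.91-fold those at 0 h. Foxd3 fell by 0.80 ± 0.20 (adjusted p = 0.0173), and Otx2 did not pass (0.91 ± 0.41, adjusted p = 0.215). The Grhl2 change was 6.86 without the 0 h library, where the start is extrapolated (adjusted p = 0.000133). Its call ended without the 72 h or 96 h library (adjusted p = 0.0723 and 0.0575), and the Foxd3 call without the 24, 72 or 96 h library (adjusted p = 0.0807, 0.059 and 0.24). Depth in the knockout was 11.68 to 17.84 M reads up to 48 h and 33.46 and 38.84 M at 72 and 96 h, and the part of this was not tested.

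Of the formative genes 6 of 15 were lower and 1 higher in the knockout, the adhesion gene Cdh2 being the higher one (2.22 ± 0.19, adjusted p = 9.19e-05). Of 14 naive genes 8 were higher and 1 lower, and among 14 relatives 5 were higher and 1 lower. The SALL relatives were among them, with Sall3 higher by 2.92 ± 0.60 (adjusted p = 0.00453), Sall4 by 1.10 ± 0.18 (adjusted p = 0.00158) and Sall1 by 0.80 ± 0.14 (adjusted p = 0.00214), while Sall2 did not pass. Sox2 was higher by 1.54 ± 0.36 (adjusted p = 0.00776), opposite in sign to Sox3. Of 24 GRHL2-linked epithelial genes 10 were lower and 1 higher, led by Cldn6, a claudin of early embryonic epithelia (−3.37 ± 0.33, adjusted p = 0.000163). The feeder fibroblast markers Thy1 and Col1a1 were both lower (−1.29 ± 0.29 and −1.13 ± 0.26, adjusted p = 0.00656 and 0.00767). Their summed level with Col1a2 was 14.3 to 42.0 in the knockout and 20.8 to 154 in KH2-ISY1 at the same hours, with Col1a2 at 0 in 5 of 6 knockout libraries. The summed level of 5 endoderm markers was 22.3 to 65.0 in the knockout and 20.4 to 95.6 in KH2-ISY1. The part of either was not tested.

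**Figure D3:**
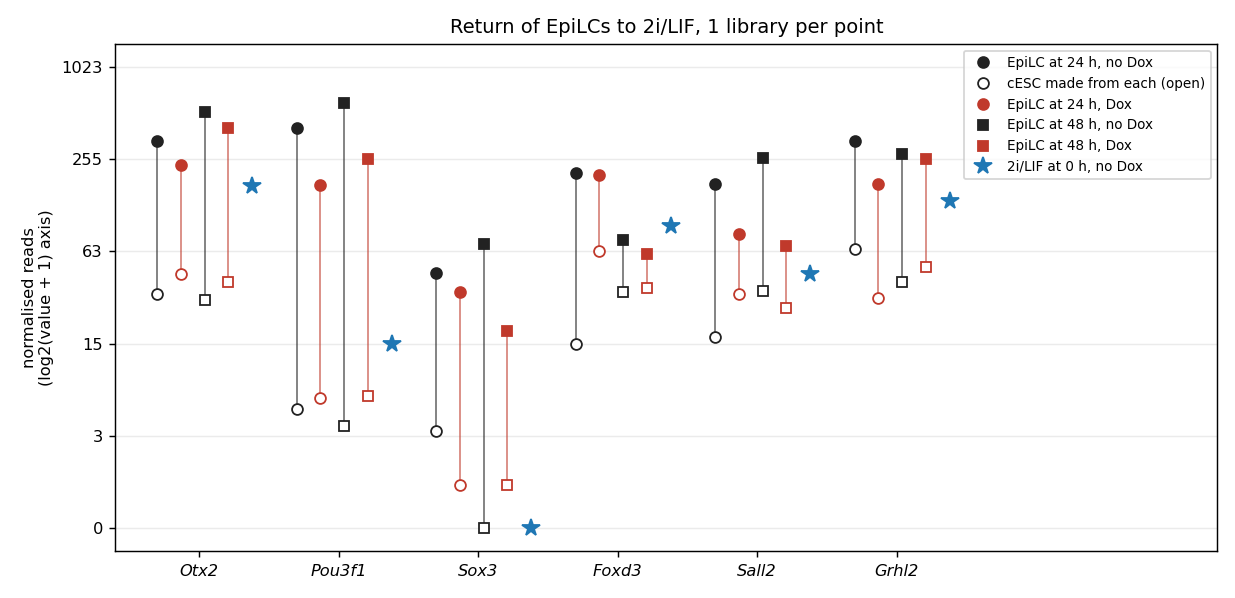
Normalised reads of each gene (vertical axis, spaced as log2(value + 1)) in EpiLCs at 24 h or 48 h (filled symbols), in the cESCs made from them (open symbols, joined to their source) and in 2i/LIF cells at 0 h (star), with 1 library per point. Each of the 4 lines runs downward for each of the 6 genes, and for each gene but Sox3, at 0 in the star, the 4 cESC values lie below the star.

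On return to 2i/LIF all 6 genes were called lower in cESCs than in their source EpiLCs. The fit called 12.8% of 16075 genes lower and 18.4% in either direction. Each of the 6 fell in all 4 pairs, and the share of all genes that did so was not counted. Median-ratio scaling moved the median of all genes by 0.12, from −0.14 to −0.02 on the log2 scale, and the higher share of calls from 30.5% to 43.9%; the falls of the 6 genes are from 1.81 to 5.72. Pou3f1 had the largest difference, from 407.3 to 5.0 and from 596.5 to 3.6 normalised reads in the 24 h and 48 h pairs without Dox. With Dox it went from 172.9 to 6.1 and from 257.0 to 6.3. All 4 cESC values were below the 14.8 of the 0 h library, and the fall was 5.72 ± 0.39 on the log2 scale (−5.72, adjusted p = 0.000174). Sox3 went from 45.5, 70.8, 33.6 and 18.4 to 3.3, 0.0, 0.9 and 0.9, that is to between 0 and 4 reads (−4.28 ± 0.52, adjusted p = 0.00162), and was 0.0 in the 0 h library.

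Otx2 in cESCs lay well below the level of the naive cells at the start of the course. It stood at 32.5 and 30.0 in cESCs from EpiLCs without Dox and at 44.7 and 39.6 in those from EpiLCs with Dox, against 171.3 at 0 h. From their sources of 336.4, 523.0, 234.6 and 410.5 the mean difference was −3.28 ± 0.27 (adjusted p = 0.000266). The ratio to the 0 h library was 0.175 to 0.261, with 1 library at 0 h and hence no test. Grhl2 was similar, at 65.0, 39.1, 30.7 and 49.5 in cESCs and 136.5 at 0 h, and it fell by 2.49 ± 0.18 from its sources (−2.49, adjusted p = 0.000187). In serum/LIF without Dox, in the other table, Otx2 stood at 23.86.

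Foxd3 stood at 15, 33.6, 63.2 and 36.0 in the cESCs, from sources of 206.4, 75.2, 200.9 and 60.5, with 93.0 at 0 h. The cESC from 24 h without Dox was the lowest and that from 24 h with Dox the highest. The fall of 1.81 ± 0.44 (−1.81, adjusted p = 0.0263) lost its call without the 24 h Dox pair (−1.86, adjusted p = 0.0884) and with no intensity trend (adjusted p = 0.0751). Without the 24 h pair without Dox it was smaller and kept its call (−1.18, adjusted p = 0.0139). Sall2 stood at 16.7, 34.5, 32.5 and 26.1 in cESCs, from sources of 174.5, 258.4, 82.2 and 68.4, with 44.3 at 0 h (−2.21 ± 0.37, adjusted p = 0.00614). All 4 cESC values lay below 0 h for Foxd3 and Sall2 as well.

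Among the other formative genes 12 of 15 were lower and 0 higher in cESCs, among them Etv4, an ETS factor (−6.22 ± 0.72, adjusted p = 0.00131), and Fgf5 (−5.98 ± 0.35, adjusted p = 9.5e-05). Of 14 naive genes 7 were higher and 0 lower, where 5.62% of all genes were called higher. Prdm14, a naive gene that encodes a transcriptional repressor, was higher by 4.07 ± 0.54 (adjusted p = 0.00241) and Klf2 by 3.58 ± 0.45 (adjusted p = 0.00182). Of 24 GRHL2-linked epithelial genes 3 were higher and 0 lower, among them the desmosome gene Dsp (1.99 ± 0.25, adjusted p = 0.00203), while Grhl2 itself fell. Of 13 relatives 2 were lower, Sox1 (−1.64 ± 0.45, adjusted p = 0.0382) and Sall1 (−0.88 ± 0.16, adjusted p = 0.00834). Sox2 did not pass (−0.01 ± 0.19, adjusted p = 0.969). Feeder markers summed to 11.7 to 21.1 in cESCs and to 28.1 to 56.1 in their sources, and the part of this was not tested.

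**Figure D4:**
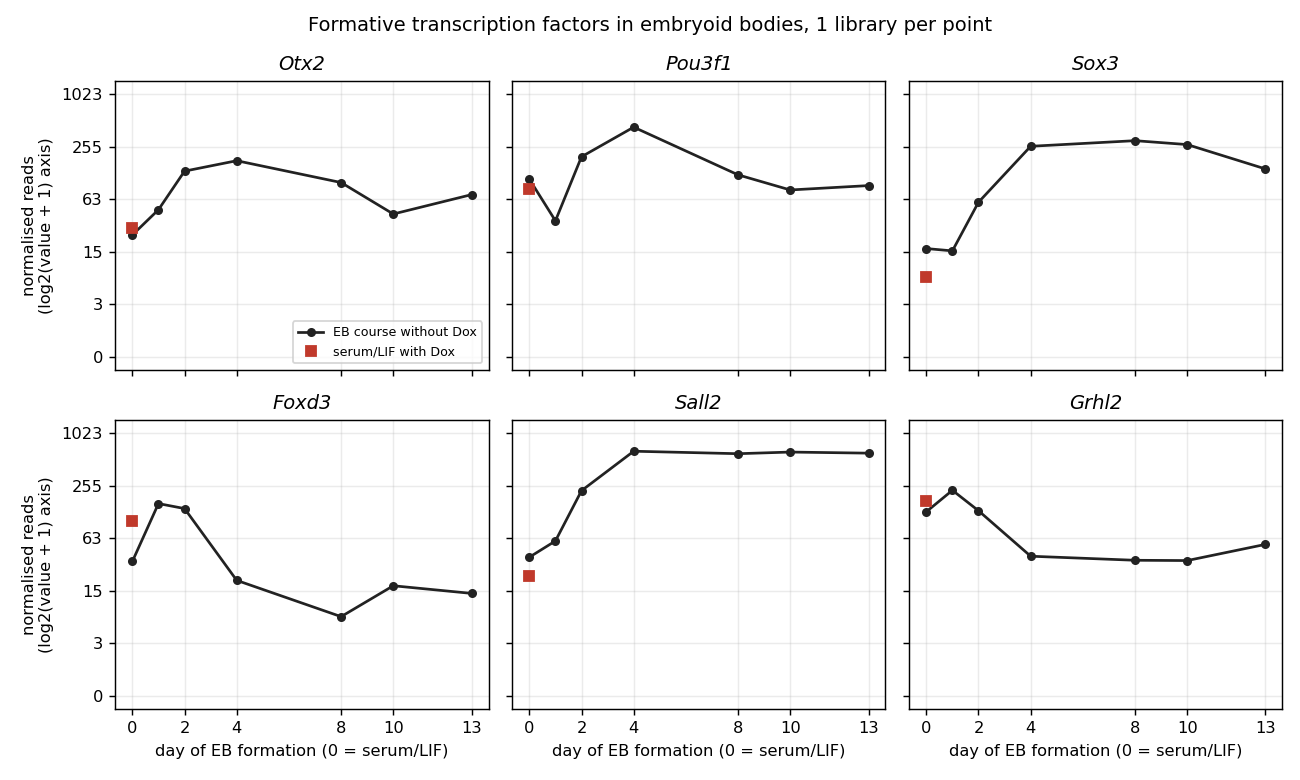
Normalised reads of each gene (vertical axis, spaced as log2(value + 1)) against day of EB formation without Dox, with day 0 in serum/LIF and 1 library per point; the square is serum/LIF with Dox. Sall2 reached 635.00 by day 4 and stayed near it, Otx2 and Pou3f1 were highest on day 4, and Foxd3 and Grhl2 were highest on day 1.

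In EBs, which form the derivatives of all germ layers, the same genes had their highest levels between day 1 and day 8. Over the 7 libraries without Dox 3 of the 6 genes ended higher, where 26.9% of 16753 genes were called and 17.3% ended higher. Median-ratio scaling moved the median of all genes by −0.13, from 0.12 to −0.01, and trimmed-mean scaling by −0.16. The direction of each of the 3 calls held under both.

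Sall2 stood at 37.73, 58.48, 223.33, 635.00, 594.71, 621.11 and 603.33 normalised reads in order of day. The last 4 libraries lay within a narrow range, 16-fold above day 0 at the end. The fitted change was 4.54 ± 0.62 on the log2 scale (7 libraries, adjusted p = 0.0053), and 7.62 without the day 0 library, where the start is extrapolated (adjusted p = 0.000563). Sox3 stood at 16.36, 15.33, 58.00, 257.50, 298.82, 269.44 and 141.11, an 18.3-fold rise to its high on day 8, with a fitted change of 4.45 ± 0.93 (adjusted p = 0.0244). Its call ended without the day 8 or day 10 library (adjusted p = 0.062 and 0.0787), and without day 0 the change was 9.58 with the start extrapolated (adjusted p = 0.000233). Unlike in EpiLC medium, Sox1 rose as well here, from 22.27 to a high of 1380.00 on day 4 (5.39 ± 1.26, adjusted p = 0.0307), while Sox2 fell from 2848.64 to 650.00 (−2.35 ± 0.32, adjusted p = 0.00546); whether Sox1 differs between the media was not tested.

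Otx2 stood at 23.86, 47.43, 133.11, 175.63, 98.24, 42.22 and 71.11 normalised reads in order of day. The high on day 4 was 7.36-fold the day 0 level, and day 13 was at 40.5% of it. The call was narrow (1.18 ± 0.60, adjusted p = 0.0487). It was 2.17 without day 0 and 0.48 without day 13. It ended without the day 0, 2, 4, 8 or 13 library (adjusted p = 0.137, 0.109, 0.103, 0.0909 and 0.0515) and with a pseudocount of 4, a higher minimum level, no intensity trend or a curve of 3 degrees of freedom (adjusted p = 0.0509, 0.0505, 0.0717 and 0.0922). Pou3f1 stood at 107.50, 35.14, 195.11, 427.50, 120.59, 80.56 and 90.56. It was lowest on day 1 and highest on day 4, and did not pass (0.26 ± 1.04, adjusted p = 0.571). Without the day 0 library it passed (4.92, start extrapolated, adjusted p = 0.0413), and without day 1 the sign turned (−0.62).

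Foxd3 and Grhl2 were highest on day 1 and low from day 4 on. Foxd3 stood at 33.64, 158.57, 138.89, 20, 7.06, 17.22 and 13.89, with the day 8 value resting on 12 reads. Day 1 was 4.71-fold day 0, and day 13 was 8.76% of that high (−2.81 ± 1.21, adjusted p = 0.159). Grhl2 stood at 127.50, 225.71, 131.11, 38.75, 34.71, 34.44 and 53.33, with a day 13 level of 23.6% of its high (−2.37 ± 0.76, adjusted p = 0.105). Neither passed with the curve of 2 degrees of freedom. Both passed with 3 (adjusted p = 0.0139 for Foxd3 and 0.0154 for Grhl2) and without the day 0 library (adjusted p = 0.00543 and 0.00202). Foxd3 thus had its high early in both media, at 12 h and on day 1, and Sall2 ended at its high at 96 h and at 95% of it on day 13.

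The neural POU genes related to Pou3f1 were at their highest later than it was. Pou3f2 stood at 11.88 on day 4 and 808.82 on day 8, and rose by 9.52 ± 1.41 over the course (adjusted p = 0.00562). Pou3f3 (8.74 ± 1.16, adjusted p = 0.00354) and Pou3f4 (7.86 ± 1.09, adjusted p = 0.00403) also rose, while Pou3f1 went from 427.50 to 120.59 between those days. Grhl1 and Grhl3 fell (−3.06 ± 0.46 and −2.73 ± 0.37, adjusted p = 0.00713 and 0.00421). Of 16 relatives 6 ended higher and 4 lower. Of 15 formative genes 6 ended higher, led by Cdh2 (6.53 ± 0.94, adjusted p = 0.00559), and 6 lower, led by Dnmt3l, a cofactor of DNA methylation (−6.0 ± 0.70, adjusted p = 0.00207). Of 14 naive genes 0 ended higher and 12 lower, where 9.61% of all genes were called lower. Of 24 epithelial genes 10 ended higher, led by the keratin gene Krt18 (4.47 ± 0.67, adjusted p = 0.00568), and 3 lower, among them the cadherin gene Cdh1 (−1.19 ± 0.22, adjusted p = 0.0171).

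Markers of other cell types moved with the EB course. Of 6 measured anterior neural genes 4 ended higher, and their summed level was 45.7 to 178 up to day 2, 1481 on day 4 and 685 to 1055 later. Of 8 neural crest genes, a lineage in which Foxd3 also acts, 5 ended higher, with summed levels of 57.0 to 105 up to day 2 and 396 to 859 from day 8 on, while Foxd3 stood at 7.06 to 17.22 there. Of 10 primitive and visceral endoderm genes, a tissue that also expresses Otx2, 8 ended higher, with summed levels of 76.2 to 158 up to day 2, 785 on day 4 and 3876 to 4738 from day 8 on. Of 6 measured fibroblast genes 2 ended higher, with a summed level of 12581 on day 13 against 21.5 to 329 before. Depth was 23.71 to 56.02 M reads up to day 2 and 8.82 to 9.51 M after it. The part of these cells and of depth in the courses was not tested.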

How the data were processed

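PolyA RNA-seq libraries were prepared from 3 ug of total RNA with a stranded mRNA kit, per the labels' protocols. Bowtie and the builds GRCm38 and mm9 are named in the submitters' processing notes; the gene counter, annotation, strand setting and normalisation are not given in the sources used here. The deposited values are a signal per gene. In 24 of 32 libraries low values stood at whole multiples of 1 step, so whole reads were recovered there, within 0.1 read (all libraries 5.8 to 56.02 M reads; 1 read was worth 0.0952 to 0.935 units). 1 line without a gene name (0.00378% of the EpiLC values) was left out, 20 EpiLC and 22 EB gene names have the form of dates, and 10 small RNA libraries were not used.

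Values were tested as log2(value + 1) with limma 3.58.1 in R 4.3.3 (intensity trend, genes with a mean of at least 1 in the libraries fitted, two-sided), with Benjamini-Hochberg adjustment over all genes tested and a threshold of 0.05; every adjusted p comes from limma unless edgeR is named. Courses were fitted as natural splines on square-root time, with 3 (EpiLC) or 2 (knockout, EB) degrees of freedom. Pairs had hour as a block. A called course is higher or lower by its fitted ends, and without an end library that end is extrapolated. edgeR 4.0.16 (quasi-likelihood) was run on recovered reads as an alternative chosen after seeing the data. A fold against 0 uses a floor of 3 reads per library; intervals (95%, exact) and floors cover counting error only. Folds on the log2(value + 1) scale understate changes of low genes.

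The 6 genes and all gene lists were chosen with earlier results of these data known. From each list at most the 2 called genes of largest change per direction and comparison are named, besides relatives and landmark genes, and 3 genes per member by likeness. Alternatives covered pseudocounts, filters, scalings, the trend, curve stiffness, the block and each library left out, though not each for every comparison. For the change of the Dox difference with hour, hour untransformed was the only alternative run.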

Additional observations from a re-analysis of the deposited data

Results flagged for a closer look

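The difference in Pou3f1 between EpiLCs with and without Dox changed with hour, which marks it as a result that differs between times. The fitted log2 difference moved by 1.27 ± 0.27 from 24 to 96 h (limma adjusted p = 0.0436, 4 pairs, 2 residual degrees of freedom). The 4 pairs stood at −1.23, −1.21, −0.32 and −0.09 in order of hour. Isy1 was 7.19-fold higher with Dox at 24 h and 1.69-fold at 96 h. Its difference changed with hour too (−2.03 ± 0.34, limma adjusted p = 0.019). Depth was 6.16 to 6.39 M reads at 24 and 48 h and 11.42 to 15.08 M at 72 and 96 h. The part of either was not tested. The only alternative run for the Pou3f1 change was hour untransformed, and the call held.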

How the results depend on the processing

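Settings were changed alone, except that edgeR, which needs recovered reads, was also fitted to fewer libraries (without 96 h on the EpiLC course, and with the 24 h and 48 h pairs alone for Dox). Of 428 alternatives to the 32 called results of the 6 genes, 382 gave the same direction and call, 42 the same direction without the call and 4 the other direction; of 274 alternatives to uncalled results 19 changed direction. Causes were not tested, except that fits without a library use fewer samples. Counts over all genes that moved by over 1.5 times were as follows. The 24 to 96 h change went from 5010 genes to 3247 without the 30 h and 36 h libraries and 1272 with edgeR without the 96 h library (1214 with limma without it). The Dox difference went from 456 to 0 with no filter, 0 with no trend and 0 with no block (3678, 3306 and 1276 at an unadjusted p under 0.05, and 522 by edgeR on the 24 h and 48 h pairs alone). The knockout difference went from 6899 to 3487 with no block, its change with hour from 85 to 245 with hour untransformed, and cESCs from 2960 to 1878 with no trend. Leaving out 1 library or pair gave 671 to 4130 genes for 0 to 24 h (3404), 1214 to 5678 for 24 to 96 h, 0 to 1122 for Dox (0 without the 48 h or the 72 h pair), 5 to 59 for the knockout change with hour, 1517 to 4922 for the knockout course (4038), 1236 to 3028 for cESCs and 1835 to 5629 for EBs (4505). Members changed sign as follows. With edgeR without the 96 h library, Otx2 was at −1.97 and Grhl2 at −0.35 over the EpiLC course, and Otx2 at −2.96 from 24 to 96 h. From 24 to 96 h Grhl2 was at 0.33 with the stiffer spline and 0.01 without the 30 h and 36 h libraries. Foxd3 with Dox was at −0.17 by edgeR on the 24 h and 48 h pairs (−0.04 and −0.31 in those pairs), the change with hour of Sox3 in the knockout was 0.34 with hour untransformed, and Pou3f1 in EBs was at −0.35 with 3 degrees of freedom and −0.21 by edgeR. With 1 library or pair left out, the EpiLC course ranged from −2.03 to 6.94 for Otx2, −1.40 to 3.17 for Foxd3 and −0.39 to 5.54 for Grhl2. The 24 to 96 h change ranged from −3.02 to 0.70 for Otx2 and −1.24 to 0.02 for Grhl2. The Dox difference ranged from −0.13 to 0.39 for Foxd3 and −0.31 to 0.07 for Grhl2. The knockout change with hour ranged from −1.05 to 1.27 for Sox3 and −0.49 to 0.32 for Foxd3, and the EB course of Pou3f1 from −0.62 to 4.92. Depth limits the low values: Pou3f1 rested on 4 to 7 reads and Sox3 on 0 to 4 reads per cESC library.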
